A study of Homo sapiens with 24 samples.

Results

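The comparison described here is that of A549 cells exposed to dexamethasone (dex) for 5 hours with A549 cells exposed to its vehicle ethanol (EtOH) for the same time. Its members are the 4 libraries labelled DEX_5hr_Rep1, DEX_5hr_Rep2, EtOH_5hr_Rep1 and EtOH_5hr_Rep2, of 24 libraries in the series, which covers 12 groups of 2 libraries, dex and EtOH at 6 times between 1 and 11 hours. A549 is an established human cell line from a lung adenocarcinoma, so each value comes from 1 cell line. Dex was given at 100 nM in ethanol, and the control cells received the same volume of ethanol, 0.02% of the medium, so that all 4 libraries come from cells exposed to ethanol. Both groups were grown in F-12K medium with serum and antibiotics. The labels name the libraries biological replicates and do not say whether they came from separate cultures, so the p-values measure the spread between libraries only. Poly-A RNA was sequenced, and the counts of the transcripts of each gene were added up.

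The 4 libraries held between 9103756 and 11973829 counts, of which 94.1% fell on transcripts that could be assigned to a gene. Mitochondrial transcripts took 4.38% and 6.32% of the counts with dex and 5.07% and 5.06% with EtOH, and the second of the dex libraries had the highest share of the 24. Of 10 genes that mark this line, the keratin gene KRT8 was at 5013 and 5065 CPM with dex and 2187 and 1906 CPM with EtOH. The NRF2 target NQO1 was at 1137 and 1267 CPM with dex and 1775 and 1789 CPM with EtOH. Not all of the 10 were high. EPCAM was at 5.42 and 5.33 CPM with dex and 8.52 and 10.8 CPM with EtOH, and KRT19 was also low and lower with dex. KRT18, KRT7 and CDH1 were higher with dex. Of 7 markers of alveolar type II cells, the cells that A549 is often used to model, only ABCA3 had enough counts to be tested, at 40.0 and 39.4 CPM with dex and 33.6 and 33.4 CPM with EtOH, while SFTPA1 and SFTPC were at 0 in all 4 libraries. Summed levels of 6 leukocyte markers reached at most 8.93 CPM, and those of 6 fibroblast markers lay between 6.67 and 10.1 CPM with dex and between 16.2 and 19.4 CPM with EtOH, of which COL1A1 made up most (8.68 and 5.00 CPM with dex, 14.7 and 16.9 CPM with EtOH). PTPRC, CD3E, MS4A1 and COL1A2 were at 0, and the part of these markers in the results was not tested.

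Dex is a synthetic glucocorticoid (GC). It binds the glucocorticoid receptor (GR), which leaves its heat shock protein complex, enters the nucleus and binds DNA at glucocorticoid response elements, most of which lie far from promoters. GR raises transcription of metabolic, anti-inflammatory and ion transport genes, and lowers that of many genes driven by NF-kappaB and AP-1. In lung epithelium GCs are known for their anti-inflammatory action and for raising sodium channel expression, and in A549 cells they slow proliferation.

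After 5 hours, 3805 of 14103 genes tested (27.0%) differed between dex and EtOH. Of these, 1832 (13.0%) were higher and 1973 (14.0%) lower with dex. A gene was called when its p from edgeR's quasi-likelihood F-test, after Benjamini-Hochberg adjustment over all features tested, was at most 0.1. The median log2 fold change was 0.65 among the genes called higher, -0.62 among those called lower and 0.00 over all genes tested, so most calls were of less than 2-fold. Larger changes were more often increases: 548 genes rose and 440 fell by over 2-fold, 150 rose and 68 fell by over 4-fold, and 66 rose and 11 fell by over 8-fold. Protein-coding genes made up 1697 of the increases and 1869 of the decreases, and of 1282 long noncoding RNA genes tested (lincRNA and antisense types) 105 rose and 89 fell. DESeq2, run on the same table, called 2320 genes. All levels are CPM (counts per 1e+06 counts of the scaled library size), and all fold changes are fitted log2 values of dex over EtOH with their standard error (SE), n = 2 libraries per group.

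**Figure D1:**
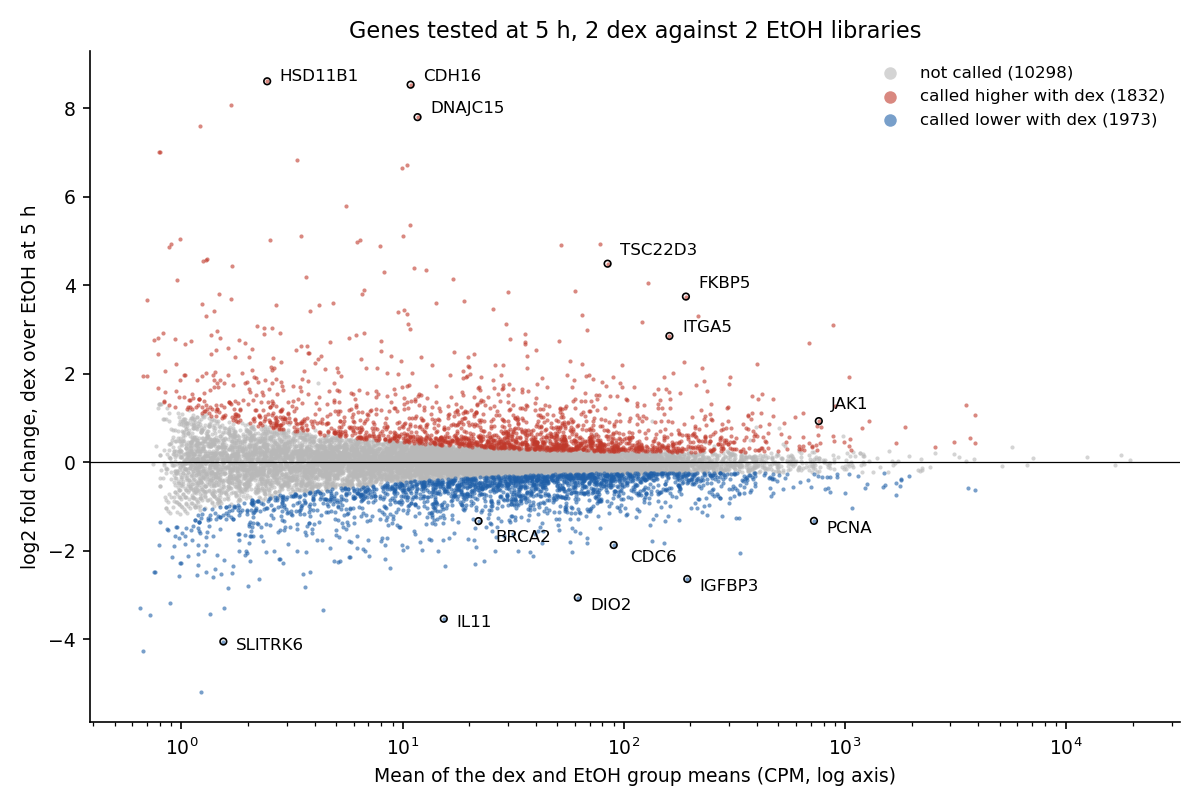
Each point is 1 of the 14103 genes tested at 5 h, with the mean of the dex and EtOH group means in CPM on a log axis and the fitted log2 fold change of dex over EtOH on the vertical axis. Genes called higher (1832) are red, genes called lower (1973) blue and the others grey, and the circled genes are described in the text.

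FKBP5, which encodes a cochaperone that lowers the affinity of GR for its ligand and is among the best known GC targets, lies at chr6:35573585-35728583 on the minus strand (ENSG00000096060; GRCh38, GENCODE release 29). It was at 372 and 339 CPM with dex and 26.1 and 26.9 CPM with EtOH, a log2 fold change of 3.75 ± 0.12 (SE; adjusted p = 1.56e-25). Among 30 genes listed as GC targets, 28 could be tested, of which 27 rose and none fell, with a median log2 fold change of 1.89. This stands beside 13.0% of all genes called higher and a median of 0.00. The list was written with earlier results of these data known, so its counts support nothing by themselves. IGFBP1 was the one tested member that did not pass. TSC22D3, which encodes the leucine zipper protein GILZ that blocks NF-kappaB and AP-1, was at 158 and 165 CPM with dex and 8.22 and 6.30 CPM with EtOH (22.5-fold). ANGPTL4, an inhibitor of lipoprotein lipase, went from 2.77 and 3.82 CPM to 100.4 and 102 CPM (30.2-fold). The cyclin-dependent kinase inhibitor gene CDKN1C was below 1 CPM with EtOH (0.411 and 0.332 CPM) and at 11.6 and 12.4 CPM with dex (log2 fold change 4.99 ± 0.35). TFCP2L1, a transcription factor of epithelial cells, was at 15.3 and 13.9 CPM with EtOH and 244 and 240.2 CPM with dex (16.7-fold). In each of these genes both dex libraries lay above both EtOH libraries, and the dex libraries were within 10% of each other.

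The GR gene itself, NR3C1, did not pass the test (log2 fold change -0.14). Of 21 tested genes of the receptor complex, its chaperones and its coregulators, 5 rose and 5 fell, with a median of -0.06, beside 13.0% and 14.0% of all genes. Without dex replicate 1 the number called higher was 2, and without EtOH replicate 2 the number called lower was 2. All 5 genes that fell encode chaperones or cochaperones. HSP90AA1, the inducible form of HSP90, was at 2850.3 and 3212 CPM with dex and 4716 and 4709 CPM with EtOH (-0.64 ± 0.10, adjusted p = 8.5e-06), and HSP90AB1, the constitutive form, at 1090.0 and 1009 against 1458 and 1481 CPM. BAG1 and DNAJA1 also fell, with log2 fold changes of -0.53 and -0.35, and these calls, like that of PTGES3, which encodes the cochaperone p23, were lost without EtOH replicate 2. The genes that rose included DNAJB1, an HSP40 cochaperone, at 271 and 283 CPM with dex and 201 and 178 CPM with EtOH (0.55 ± 0.10).

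**Figure D2:**
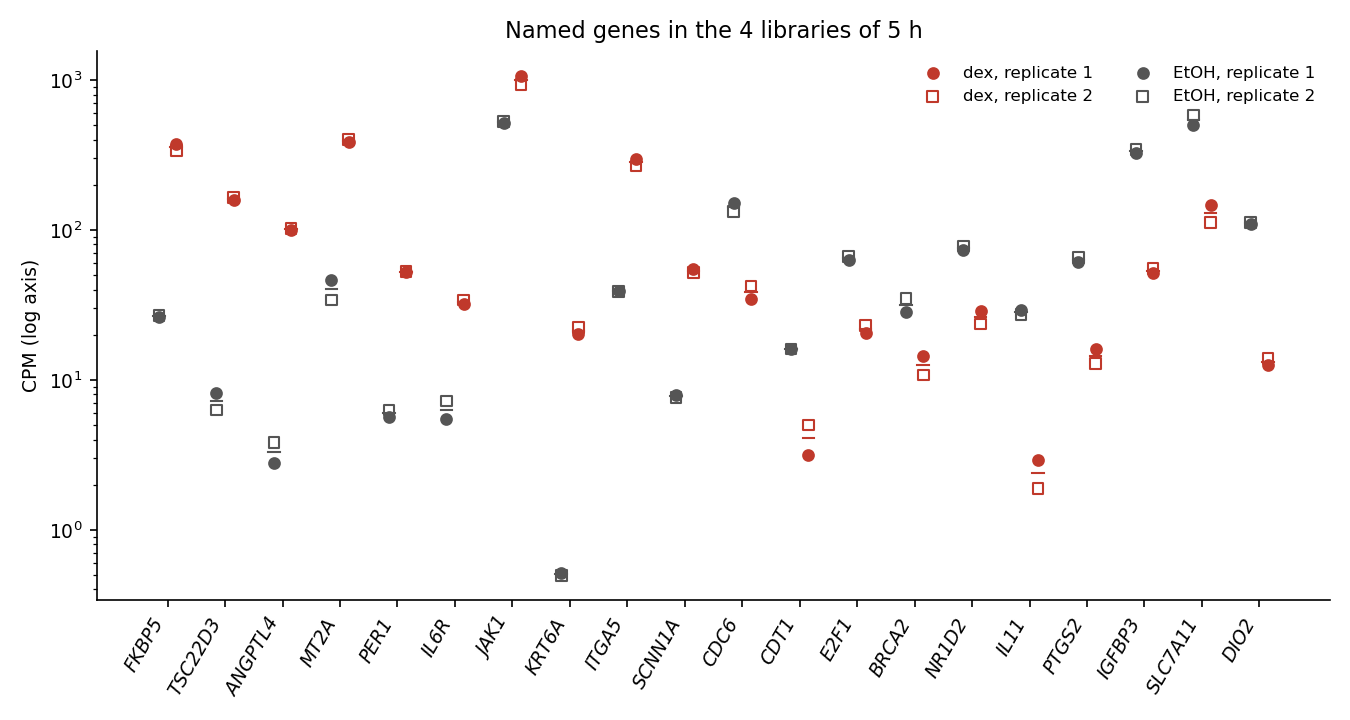
The level of 20 named genes in each of the 4 libraries of 5 h is given in CPM on a log axis. Filled circles are replicate 1 and open squares replicate 2, red is dex and grey EtOH, and the short bars are group means. In each gene the 2 dex libraries lie apart from the 2 EtOH libraries.

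Genes that copy DNA fell together. All 46 tested members of a list of 47 DNA replication genes were called lower with dex (14.0% of all genes were), with log2 fold changes between -1.98 and -0.35 and a median of -0.98. The list spans every step of the process: origin licensing (CDC6, CDT1, the MCM helicase), helicase activation (CDC45, GINS1 to GINS4), polymerases, the clamp PCNA and its loaders, nucleotide supply and chromatin assembly. CDT1, which with CDC6 loads the MCM helicase on origins, was at 3.15 and 5.00 CPM with dex and 16.1 and 16.1 CPM with EtOH (-1.98 ± 0.22, adjusted p = 1.9e-09). CDC6 was at 34.8 and 42.3 against 150.1 and 133 CPM (3.67-fold lower). MCM10, which activates the loaded helicase, was at 26.1 and 24.4 against 93.8 and 83.7 CPM (3.50-fold lower), and CLSPN, which encodes the checkpoint mediator claspin, at 14.9 and 12.6 against 43.1 and 44.5 CPM. In none of these 4 genes did the groups overlap. RPA1, a subunit of the single-strand binding protein, fell least (-0.35). In bulk RNA, fewer cells in S phase and less of these RNAs per cell cannot be told apart.

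Transcription of replication genes is driven by E2F factors, which bind sites in their promoters. Windows are given for CDT1, PCNA and E2F1, which were lower with dex and held letters of such sites before the start. Whether these sites had a part in the decrease was not tested. The letters searched on both strands, in the 300 bases from 250 before to 50 after the RefSeq start, were TTTCCCGC, TTTGGCGC, TTTCGCGC and TTTGCCGC, and no copy of another motif searched here contains one of them. They occurred in 19 of 41 replication promoters with a sequence in the RefSeq table (46.3%), beside 908 of 27305 promoters in all (3.33%). The windows below end before the start of transcription (RefSeq, GRCh38.p14; each read 5′ to 3′ on the gene's strand), and capitals mark the letters found, which stand on the other strand in PCNA, in CDT1 and in the first of the stretches marked in E2F1.
CDT1, chr16:88803724-88803788, plus strand: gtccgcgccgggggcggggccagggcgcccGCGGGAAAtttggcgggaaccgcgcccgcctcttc
PCNA, chr20:5126644-5126711, minus strand: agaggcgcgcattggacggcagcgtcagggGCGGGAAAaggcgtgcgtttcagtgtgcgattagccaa
E2F1, chr20:33686386-33686448, minus strand: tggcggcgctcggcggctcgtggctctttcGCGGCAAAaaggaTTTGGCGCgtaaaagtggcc
The last base of the match stood 28 bases before the start in CDT1 and 52 bases before it in PCNA, and in E2F1 that of the nearer of 2 matches stood 13 bases before it. No copy stood before the start in CDC6, MCM10, CLSPN, BRCA2 or XRCC2, which says only that these letters are not in this window. PCNA, chosen for this window and not by size of change, was at 442 and 383 CPM with dex and 1089.9 and 982 CPM with EtOH (-1.33 ± 0.11). A match is a description of the letters, not evidence that a factor was bound.

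Genes of homologous recombination and of the Fanconi anaemia pathway, which repair broken and crosslinked DNA, fell as well. Of 30 tested 24 were called lower and none higher, beside 14.0% and 13.0% of all genes, with a median of -0.85. BRCA2, a tumour suppressor gene of homologous recombination, lies at chr13:32315474-32400266 on the plus strand (ENSG00000139618). It was at 14.3 and 10.8 CPM with dex and 28.3 and 34.8 CPM with EtOH, a log2 fold change of -1.33 ± 0.16 (adjusted p = 1.74e-08), and the groups did not overlap. XRCC2, another recombination gene, was at 6.83 and 7.11 against 23.2 and 23.9 CPM (3.38-fold lower). EXO1, the nuclease that resects DNA ends, was at 17.1 and 21.4 against 60.8 and 58.6 CPM, and the helicase genes BRIP1 (-1.47 ± 0.13) and BLM (-1.38 ± 0.12) fell by more than 2-fold. The 6 members that did not pass, PALB2, FANCE, FANCF, NBN and RAD50 among them, had log2 fold changes between -0.55 and -0.08. The E2F letters stood in 6 of 27 promoters of this list (22.2%).

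Genes of mitosis and the kinetochore showed a smaller decrease. Of 48 tested, 44 fell and none rose, beside 14.0% and 13.0% of all genes, and the median was -0.54. A single member, 1 of 48, was called higher without dex replicate 1 and without EtOH replicate 2. The largest decreases were in SPC25, a subunit of the NDC80 complex (10.5 and 11.0 CPM with dex, 18.6 and 23.1 CPM with EtOH), MYBL2, a transcription factor of the late cell cycle (-0.92 ± 0.12), the checkpoint gene MAD2L1 (-0.84 ± 0.12) and the kinesin gene KIF2C (-0.84 ± 0.14). PLK1, CDC20, KIF20A and SPC24 did not pass, with values from -0.24 to 0.32. The letters TTTGAA or TTCGAA, which make up the cell cycle genes homology region, were searched on both strands in the same 300 bases. They stood in 29 of 42 promoters of this list (69.0%), in 3 of 41 replication promoters (7.32%) and in 4539 of 27305 promoters in all (16.6%). The E2F letters stood in 3 of the 42 (7.14%).

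Regulators of the G1 phase split. Of 26 tested, 13 fell and 3 rose, beside 14.0% and 13.0% of all genes, with a median of -0.32. The members that fell were led by E2F factors: E2F2 (4.88 and 3.56 CPM with dex, 16.0 and 15.2 CPM with EtOH), E2F7 (21.8 and 15.7 against 64.2 and 68.2 CPM), E2F8 (-1.60 ± 0.18) and E2F1, whose promoter is shown above, at 20.5 and 23.1 against 62.9 and 66.3 CPM (2.96-fold lower). E2F1 and E2F2 encode activators, E2F7 and E2F8 repressors of transcription. The 3 that rose were CDKN1A, which encodes the cyclin-dependent kinase inhibitor p21 (239 and 234 CPM with dex, 93.7 and 81.4 CPM with EtOH, 2.71-fold), the D-type cyclin gene CCND1 (0.59 ± 0.10) and MYC (0.35 ± 0.10).

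Inflammatory mediators changed in both directions. Of 31 listed, 16 could be tested, of which 10 fell and 5 rose, beside 14.0% and 13.0% of all genes, with a median of -0.99. IL11, a cytokine of the IL-6 family, had the largest decrease, from 29.4 and 27.2 CPM with EtOH to 2.93 and 1.89 CPM with dex (-3.54 ± 0.21, adjusted p = 2.28e-16). PTGS2, which encodes the prostaglandin synthase COX-2, was at 15.9 and 12.9 CPM with dex and 60.9 and 65.4 CPM with EtOH (4.38-fold lower). The neutrophil chemokine gene CXCL8 was at 1.19 and 0.778 against 2.57 and 3.65 CPM. CSF3, which encodes the neutrophil growth factor G-CSF, went the other way: 44 counts in the dex libraries stood against 2 in the EtOH libraries, a ratio of 26.3 (95% exact interval 6.87 to 224.1, counting error only). All such intervals, here and below, pool the libraries of a group and leave out the spread between libraries. CXCL2 rose too (1.27 ± 0.33), but its EtOH libraries differed from each other (1.03 and 2.57 CPM) and its call was lost without EtOH replicate 1 (0.81).

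NF-kappaB, the factor that drives many of these mediators, is held in the cytoplasm by inhibitors. Of 26 tested genes of its pathway 6 rose and 2 fell, a share near that of all genes, and the median of 0.04 changed sign without dex replicate 2 (-0.04). The members that rose included inhibitors. NFKBIA, which encodes IkappaB alpha, was at 191 and 216 CPM with dex and 70.1 and 68.7 CPM with EtOH (1.55 ± 0.11). TNFAIP3, which encodes the ubiquitin-editing enzyme A20, was at 14.3 and 13.3 against 4.83 and 3.98 CPM (3.16-fold), and IRAK3, which encodes an inhibitor of Toll-like receptor signalling, at 7.05 and 6.89 against 0.719 and 0.581 CPM (10.7-fold). TNIP1 (0.91), BCL3 (0.82) and NFKBIZ (0.42) also rose. The subunit genes RELB (-1.40 ± 0.36) and NFKB2 (-0.70 ± 0.19) fell, and the call of NFKB2 was lost without dex replicate 1 (-0.36). The letters of an NF-kappaB site, GGGNN followed at once by TTTCC and searched on both strands, stood in 5 of 23 promoters of this pathway (21.7%) and in 523 of 27305 in all (1.92%).

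Called ligands of the EGF receptor family fell, while feedback inhibitors of its pathway moved in both directions. Of 26 tested genes of this group 8 fell and 4 rose, beside 14.0% and 13.0% of all genes. The median of -0.26 moved to -0.04 without EtOH replicate 2 and to -0.13 without dex replicate 2. AREG was at 4.56 and 5.33 CPM with dex and 20.4 and 18.7 CPM with EtOH (3.95-fold lower), EREG at 65.1 and 55.9 against 207 and 207 CPM (3.42-fold lower), and the ligand genes NRG1 (-1.05) and TGFA (-0.96) fell by less. ERRFI1, which encodes the receptor inhibitor MIG6, rose from 135 and 135 CPM to 485 and 435 CPM. DUSP1, the phosphatase that inactivates p38 and JNK and a listed GC target, was at 475 and 647 CPM with dex and 196 and 204 CPM with EtOH (1.49 ± 0.12). DUSP16 rose (0.65 ± 0.12), whereas DUSP4 (-1.10 ± 0.10) and DUSP6 (-0.70 ± 0.29), phosphatases that act mainly on ERK, fell. SPRY1 rose at low counts (3.25 and 3.22 against 1.44 and 1.66 CPM), and its call was lost without EtOH replicate 1 (0.96).

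Of 31 tested MAP kinase genes 4 rose and 6 fell, near the 13.0% and 14.0% of all genes, and 2 were called lower without dex replicate 2. The median was 0.02, which turned negative without dex replicate 1 (-0.06), dex replicate 2 (-0.05) or EtOH replicate 2 (-0.04). MAP3K5, which encodes the stress kinase ASK1, fell from 8.01 and 8.38 CPM to 2.71 and 3.44 CPM (-1.41 ± 0.25), and MAP3K6, which encodes its relative ASK2, rose from 8.93 and 9.95 CPM to 15.9 and 21.0 CPM (0.96 ± 0.18). MAP3K8 fell (-0.61 ± 0.14), while MAP2K2, an ERK kinase (0.64 ± 0.11), and MAP4K4 (0.39 ± 0.10) rose. The promoter of MAP3K6 is shown because it was the only one among the named genes called higher that held, before the start, the letters of a glucocorticoid response element, GNACA followed after 3 bases by TGTNC, in capitals below (RefSeq, GRCh38.p14). The last base of the match stood 140 bases before the start.
MAP3K6, chr1:27367071-27367143, minus strand: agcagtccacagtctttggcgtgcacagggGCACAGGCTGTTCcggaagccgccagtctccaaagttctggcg
These letters stood in 1 of 28 promoters of the MAP kinase list (3.57%) and in 106 of 27305 promoters in all (0.388%). None of 23 promoters of the GC targets held them, which says only that they are not in this window.

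Immediate early genes and AP-1 subunits, which respond to growth factors within minutes, fell more often than they rose. Of 16 tested 7 fell and 3 rose, beside 14.0% and 13.0% of all genes, with a median of -0.44. The orphan nuclear receptor gene NR4A2 was at 0.976 and 0.556 CPM with dex and 3.59 and 2.74 CPM with EtOH (-2.01 ± 0.41), IER3 at 6.18 and 6.0 against 22.0 and 19.3 CPM, IER5 at 13.9 and 17.8 against 36.5 and 39.4 CPM and FOSL1, which encodes the AP-1 subunit FRA1, at 3.69 and 3.44 against 9.45 and 7.63 CPM. The subunit genes JUNB (61.6 and 82.0 CPM with dex, 36.3 and 25.5 CPM with EtOH) and FOSL2 (0.75 ± 0.10) rose. IER3 overlaps an antisense gene, and whether the counting used strand is not stated.

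Several receptors and signal carriers of the IL-6 family were among the genes that rose. Of 28 tested genes of JAK-STAT signalling 15 were called higher and 1 lower, beside 13.0% and 14.0% of all genes, with a median of 0.40. JAK1, the kinase bound to the receptors of interferons and of IL-6, lies at chr1:64833229-64966504 on the minus strand (ENSG00000162434) and was at 1067 and 929.9 CPM with dex and 520.5 and 529 CPM with EtOH (0.93 ± 0.10, adjusted p = 2.57e-09). IL6R, the IL-6 receptor, was at 32.1 and 34.1 against 5.44 and 7.22 CPM (5.17-fold), and IL6ST, its signalling subunit gp130, at 677 and 602 against 304 and 316 CPM. LIFR rose 2.30-fold and the interferon gamma receptor gene IFNGR1 2.85-fold. The transcription factor genes STAT3 (0.60 ± 0.10) and STAT4 (0.79 ± 0.13) rose by less than 2-fold. SOCS2, which encodes a suppressor of cytokine signalling, was the one member that fell (-0.71 ± 0.15), and SOCS3 did not pass (0.35). Among 22 tested genes that respond to interferon 4 rose and 2 fell (27.3%), a share near the 27.0% of all genes, with a median of 0.06. Without dex replicate 2 the number called higher was 1, and without EtOH replicate 1 it was 2. OAS3, an RNA sensor, fell from 113 and 124 CPM to 72.0 and 66.9 CPM, and the calls of IFIT1 (0.98), IRF9 (0.53) and OAS1 (-0.41) were lost when 1 library was left out. IFIT1 was at 0.67 without dex replicate 2 and 0.91 without EtOH replicate 1, IRF9 at 0.36, 0.62 and 0.45 without dex replicate 2, EtOH replicate 1 and EtOH replicate 2, and OAS1 at -0.27, -0.32 and -0.48 without dex replicate 1, EtOH replicate 1 and EtOH replicate 2.

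Of 36 tested TGF-beta superfamily genes 9 were lower and 6 higher (median -0.11), beside 14.0% and 13.0% of all genes. Secreted inhibitors had the largest decreases. FST, which encodes follistatin, an activin trap, was at 0.759 and 0.778 CPM with dex and 9.04 and 6.80 CPM with EtOH (-3.33 ± 0.34). GREM1, a BMP antagonist, had 2 counts with dex and 29 with EtOH, a ratio of 12.1 (95% exact interval 3.07 to 104.8). The ligand genes GDF15 (0.542 and 0.667 against 5.13 and 2.65 CPM) and TGFB2 (45.1 and 37.0 against 114 and 116 CPM) fell as well. TGFBR1, a TGF-beta receptor, rose from 239 and 246 CPM to 534 and 509 CPM, and LTBP1, which stores latent TGF-beta in the matrix, rose 2.14-fold. FSTL3, another activin inhibitor, rose as well (1.06 ± 0.12).

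Cell adhesion genes changed in both directions. Of 34 tested matrix and integrin genes 10 rose and 4 fell, beside 13.0% and 14.0% of all genes. The median of 0.05 lay between -0.08 and 0.16 when 1 library was left out. ITGA5, the fibronectin receptor subunit, was at 298 and 267 CPM with dex and 39.4 and 38.7 CPM with EtOH (7.23-fold, adjusted p = 2.05e-22), ITGB4, which anchors epithelial cells to laminin, at 167 and 156 against 36.8 and 33.9 CPM and ITGA1 at 36.2 and 30.3 against 13.0 and 12.4 CPM. The laminin genes LAMA3 (1.17), LAMB3 (1.03) and LAMA5 (0.99) and fibronectin, FN1 (0.47), rose. COL1A1, a collagen chain, fell from 14.7 and 16.9 CPM to 8.68 and 5.00 CPM, SPARC from 52.3 and 52.3 CPM to 31.0 and 30.9 CPM, and the collagen crosslinking enzyme gene LOXL2 fell too (-0.66 ± 0.11).

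Among 29 tested genes of junctions and keratins 10 rose and 7 fell, beside 13.0% and 14.0% of all genes, with a median of -0.01. CDH16, which encodes a cadherin of kidney epithelium, had 395 counts with dex and 1 with EtOH, a ratio of 472.6 (95% exact interval 84.3 to 18712). The claudins, which set the permeability of tight junctions, were split: CLDN7 had 45 counts with dex and 2 with EtOH (ratio 26.9, interval 7.03 to 229.1), whereas CLDN2 fell from 62.4 and 58.1 CPM to 14.0 and 15.3 CPM and CLDN1 from 89.2 and 98.9 CPM to 41.9 and 38.8 CPM. PKP2, a desmosome component, rose 3.77-fold, and KRT8 (1.30 ± 0.11), KRT18 (1.06 ± 0.11) and KRT7 (0.94 ± 0.10) rose while KRT80 fell (-0.92 ± 0.10). In the list of actin genes and targets of the coactivator YAP 11 of 28 tested rose and 5 fell (median 0.19), beside the same shares. The YAP targets ANKRD1 (43.6 and 43.1 against 14.0 and 13.2 CPM), CDC42EP3 (1.27 ± 0.10) and CTGF (1.17 ± 0.12) rose, whereas AXL (-0.91 ± 0.10) and ARHGAP29 (-0.70 ± 0.11) fell. MYL9 rose at low counts (1.43), a call lost without dex replicate 2 (1.22) or EtOH replicate 2 (1.29).

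Genes of sodium uptake were among those raised. SCNN1A and SCNN1G encode subunits of the epithelial sodium channel. SCNN1A was at 55.0 and 52.0 CPM with dex and 7.91 and 7.63 CPM with EtOH (2.78 ± 0.15), and SCNN1G had 29 counts with dex and 0 with EtOH, at least 11.6-fold higher when 3 counts over the EtOH libraries are taken as the limit. SGK1, the kinase that keeps the channel at the membrane, was at 195 and 206 against 82.6 and 89.8 CPM. The water channel gene AQP3 was at 9.00 and 7.56 against 1.34 and 2.57 CPM. Over the whole list of ion and water transport 11 of 24 tested rose and 6 fell, beside 13.0% and 14.0% of all genes, with a median of 0.30. Without dex replicate 2 the numbers that rose and fell were 7 and 4. Those that fell included the carbonic anhydrase gene CA2 (0.542 and 0.111 against 2.46 and 1.58 CPM), the bicarbonate transporter gene SLC4A4 (-1.07 ± 0.17) and the chloride cotransporter gene SLC12A2 (-0.83 ± 0.11).

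Metallothioneins, which bind zinc and copper, all rose among those tested: MT2A (387 and 400.3 CPM with dex, 46.0 and 34.2 CPM with EtOH), MT1X (119 and 118 against 12.2 and 11.4 CPM), MT1G (3.90 ± 0.30), MT1F (2.10 ± 0.37) and MT1A (1.38 ± 0.40). The genes of this family are nearly identical, so reads may be shared between them and the values of single members are uncertain. With the zinc transporters 6 of 13 tested rose and 2 fell (median 0.28), beside 13.0% and 14.0% of all genes. SLC39A14, a zinc and iron importer, rose (1.04 ± 0.10) and SLC39A10 fell (-0.61 ± 0.11), and the call of the exporter gene SLC30A1 (-0.24, adjusted p = 0.0998) was lost whichever library was left out, with values from -0.30 to -0.17.

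In the cholesterol and fatty acid list 16 of 31 tested genes rose and 1 fell, beside 13.0% and 14.0% of all genes, with a median of 0.34. MSMO1, a sterol oxidase of cholesterol synthesis, was at 121 and 120.1 CPM with dex and 72.8 and 82.0 CPM with EtOH (0.63 ± 0.11). FASN, the fatty acid synthase, rose from 143 and 148 CPM to 244 and 202 CPM. HMGCS1, an early enzyme of the mevalonate pathway, and LSS, which closes the sterol rings, rose too (0.54 ± 0.10 and 0.62 ± 0.13). SCD, which makes unsaturated fatty acids, was the one member that fell (361 and 371 against 530.2 and 562 CPM). MVK (0.68) and HSD17B7 (0.65) were called, but no longer passed without dex replicate 1 (0.38 and 0.50) or EtOH replicate 1 (0.50 and 0.54).

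Fuel and insulin signalling genes rose in 12 cases and fell in 6 of 33 tested (median 0.12), beside 13.0% and 14.0% of all genes. Without EtOH replicate 1 the number called lower was 3. PDK4, the kinase that shuts off pyruvate oxidation, was at 108 and 114 CPM with dex and 23.3 and 32.6 CPM with EtOH (3.94-fold), while its relative PDK3 fell (-1.01 ± 0.15). The transcription factor genes FOXO1 (32.5 and 32.3 against 8.11 and 6.55 CPM) and FOXO3 (1.22 ± 0.12) and the insulin receptor substrate gene IRS2 (1.43 ± 0.11) rose. IGFBP3, which binds insulin-like growth factors, fell from 325 and 342 CPM to 51.9 and 55.1 CPM (-2.64 ± 0.11, adjusted p = 1.13e-21).

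Clock genes rose in 7 cases and fell in 4 of 18 tested, beside 13.0% and 14.0% of all genes. Their median of 0.29 lay between 0.13 without dex replicate 1 and 0.42 without EtOH replicate 2. Some genes of the negative arm of the clock, which blocks CLOCK and BMAL1, were among those that rose. PER1 was at 52.2 and 53 CPM with dex and 5.65 and 6.30 CPM with EtOH (3.13 ± 0.15), PER2 at 17.8 and 19.9 against 6.57 and 7.05 CPM and CRY2 at 10.5 and 13.3 against 6.37 and 4.48 CPM. NR1D2, which encodes the repressor REV-ERB beta, fell from 73.1 and 78.0 CPM to 28.97 and 23.6 CPM. NPAS2 (-1.09 ± 0.15) and ARNTL2 (-0.92 ± 0.12), which encode relatives of CLOCK and BMAL1, fell as well.

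Stress responses moved in different directions. Targets of NRF2, which guard against oxidants and are high in this line, fell in 15 of 26 cases and rose in 1 (median -0.29). This stands beside 14.0% and 13.0% of all genes. The call of the 1 that rose was lost without dex replicate 1, EtOH replicate 1 or EtOH replicate 2. Both subunits of the enzyme that makes glutathione fell, GCLM from 283 and 319.9 CPM to 166 and 176 CPM and GCLC from 399 and 417 CPM to 260.2 and 247 CPM, as did OSGIN1 (-1.50 ± 0.30), SRXN1 (-0.68 ± 0.11) and the gene of the factor itself, NFE2L2 (-0.51 ± 0.10). SLC7A11, the cystine importer that feeds glutathione synthesis, was at 147 and 112 CPM with dex and 497 and 583 CPM with EtOH (-2.06 ± 0.12). In the list of the unfolded protein and amino acid responses, which holds SLC7A11, 10 of 30 tested fell and 7 rose (median -0.06), beside the same shares. Without EtOH replicate 1 the number called higher was 4. Those that fell included genes of amino acid supply such as PHGDH (-0.74 ± 0.17) and ASNS (-0.61 ± 0.12), while genes of the endoplasmic reticulum such as EIF2AK3 (0.87 ± 0.13), ATF6 (0.44 ± 0.11) and HSPA5 (0.44 ± 0.10) rose. Of 32 tested p53 targets and BCL2 family genes 8 rose and 8 fell (median -0.01), beside 13.0% and 14.0% of all genes. GADD45A was at 45.3 and 80.1 CPM with dex and 17.6 and 19.1 CPM with EtOH, the dex libraries differing widely but not overlapping the EtOH libraries, GADD45B rose 2.50-fold, and the survival genes MCL1 (1.03 ± 0.10) and BCL2L1 (0.54 ± 0.11) rose. PLK2 fell from 461 and 476 CPM to 181 and 212 CPM and the death genes PMAIP1 (-0.73 ± 0.16) and BBC3 (-0.97 ± 0.39) fell, BBC3 at low counts (0.976 and 1.44 CPM with dex, 2.36 and 2.41 CPM with EtOH) and with its call lost without dex replicate 1 (-0.72), EtOH replicate 1 (-0.98) or EtOH replicate 2 (-0.95).

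Medians of the housekeeping lists lay between -0.07 and 0.19. None of 40 cytosolic ribosomal protein genes was called by edgeR or DESeq2 (median 0.02, range -0.14 to 0.25), and 1 had an unadjusted p under 0.05. This rested on EtOH replicate 1, without which some of the 40 were called higher and the median was 0.25. Without EtOH replicate 2 the median was -0.07, and there and without dex replicate 1 a single gene was called lower. RPL7 was at 1172 and 1131 CPM with dex and 1194 and 1224 CPM with EtOH, and RPL4 at 1079 and 1049.9 against 1158 and 976 CPM, and in RPL4 the groups overlapped. Of 32 genes of ribosome biogenesis 2 rose and 6 fell, a share near the 27.0% of all genes, with called values from -0.40 to 0.38 (median -0.07). Only 1 was called higher and 2 lower without dex replicate 1, 3 were called lower without dex replicate 2, and 1 higher without EtOH replicate 1. Among these genes NCL, which encodes nucleolin, fell (-0.33 ± 0.10), a call lost without dex replicate 1 (-0.28) or EtOH replicate 2 (-0.28). Nuclear genes of oxidative phosphorylation were called higher in 7 of 34 cases and lower in none, beside 13.0% and 14.0% of all genes (median 0.19). The number called higher was 2 without EtOH replicate 2 (median 0.11) and 12 without EtOH replicate 1 (median 0.28). The 7 were led by SDHD, a subunit of succinate dehydrogenase (0.43 ± 0.11), and ATP5F1B, a subunit of ATP synthase (0.34 ± 0.10, call lost without EtOH replicate 1 at 0.31). The share of mitochondrial counts, which differed between the dex libraries, stands in the opening, and its part in these values was not tested.

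**Figure D3:**
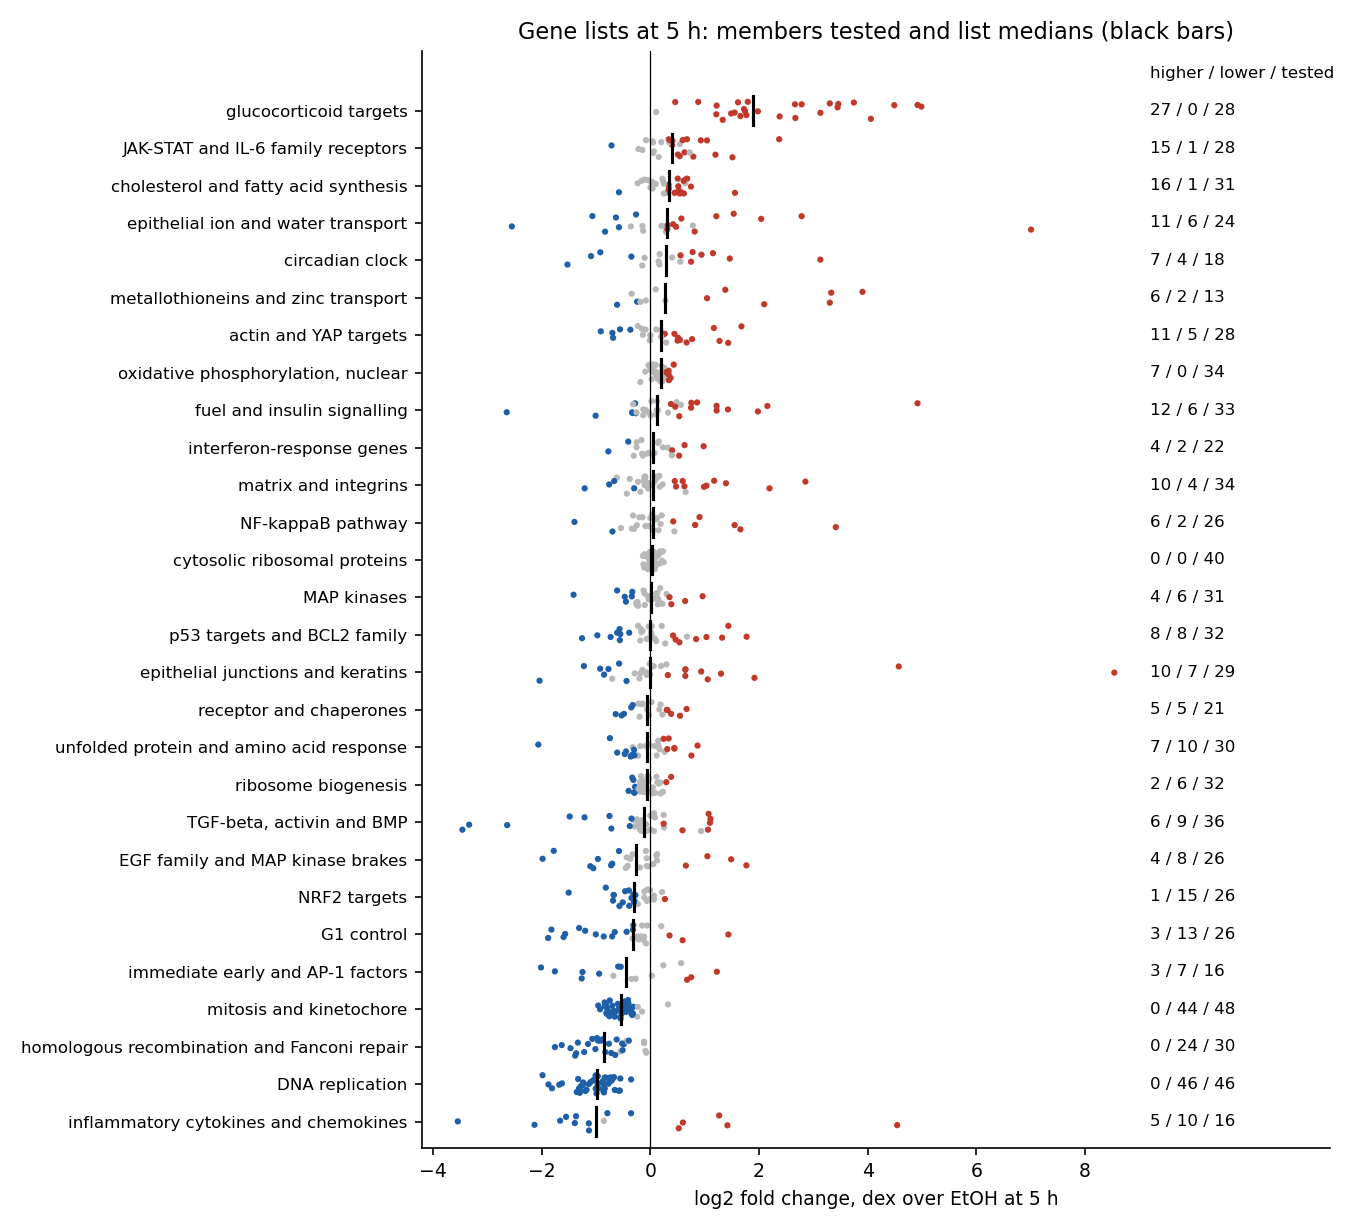
Each point is 1 tested member of the list named on the left, placed by its log2 fold change of dex over EtOH at 5 h, in red if called higher, blue if called lower and grey otherwise, and the black bar is the list's median. The numbers on the right give members called higher, called lower and tested, from 27, 0 and 28 for the GC targets to 0, 46 and 46 for DNA replication.

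Among genes with at least 20 counts in each dex library, the largest increases were in genes nearly silent with EtOH, which cannot be given an exact fold. HSD11B1, the enzyme that turns inactive cortisone into cortisol, had 89 counts with dex and 0 with EtOH, at least 35.5-fold higher. BEST2, a chloride channel gene, had 61 and 0 counts (at least 24.3-fold higher), and C11orf91 44 and 0 (at least 17.5-fold higher). DNAJC15, a mitochondrial cochaperone gene, had 423 counts with dex and 2 with EtOH, a ratio of 253.0 (95% exact interval 69.6 to 2096). The placental alkaline phosphatase genes ALPP (20.4 and 21.1 CPM with dex, 0.103 and 0.249 CPM with EtOH) and ALPG (121 and 1 counts) are nearly identical, so their reads cannot be told apart with certainty. STAC2 (6.65 ± 0.35), CILP (5.80 ± 0.40), which encodes a cartilage matrix protein, and the keratin gene KRT6A (20.1 and 22.3 against 0.513 and 0.498 CPM) complete the 10 protein-coding genes that rose most together with CDH16. KRT6A, too, has close copies.

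With at least 20 counts in each EtOH library, the 10 protein-coding genes that fell most were SLITRK6, IL11, IGFN1, FST, DIO2, DRD1, FZD8, TPPP3, IGFBP3 and GDF15. DIO2, the deiodinase that activates thyroid hormone, was at 12.6 and 13.9 CPM with dex and 109 and 112 CPM with EtOH (-3.06 ± 0.13, adjusted p = 2.38e-21). SLITRK6, a neuronal adhesion gene, had 3 counts with dex and 64 with EtOH, a ratio of 17.8 (95% exact interval 5.83 to 88.7). FZD8, a Wnt receptor gene, was at 1.19 and 0.556 against 7.29 and 5.39 CPM, and the dopamine receptor gene DRD1 at 0.217 and 0.556 against 2.88 and 2.82 CPM. TPPP3, a tubulin binding protein gene, was at 0.651 and 0.333 against 3.39 and 3.65 CPM. Of long noncoding RNAs, AL592146.1 (12.2 and 12.8 against 0.616 and 0.166 CPM), AC007182.1 (2.58 ± 0.46) and AL033528.2 (2.37 ± 0.45) rose most, and AC092118.1 (-3.30 ± 0.57), AP002893.1 (-2.25 ± 0.28) and AL161747.2 (-2.19 ± 0.36) fell most. The call of AC092118.1 was lost with DESeq2 (-3.37). What these noncoding RNAs do is not given in the sources used here.

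To see where 5 hours stands in the time course, the effect of dex was compared with that at 3 and 7 hours, each against its own EtOH libraries, in 1 fit of 12 libraries. The effect at 5 hours differed from that at 3 hours in 1649 of 14867 genes (11.1%): it was higher at 5 hours in 635 and lower in 1014. In 1250 of these the effect was larger in size at 5 hours, and in 399 smaller. Between 5 and 7 hours 1 gene differed (0.00673%), with 896 genes (6.03%) at an unadjusted p under 0.05; without dex replicate 1 of 5 hours 10 genes differed, without dex replicate 2 another gene did and without EtOH replicate 2 none. DESeq2 gave 9, and NR1D2 was not among them. Of the 1832 genes called higher at 5 hours 79.6% had the same sign at 3 hours and 94.8% at 7 hours, with medians of 0.30 and 0.53. Of the 1973 genes called lower 72.6% had the same sign at 3 hours and 96.6% at 7 hours, with medians of -0.15 and -0.47. Over all 14867 genes 49.4% were above 0 at 3 hours and 47.5% at 7 hours. Both sets were chosen by their values at 5 hours, so their medians at 3 and 7 hours cannot be set against those at 5 hours.

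**Figure D4:**
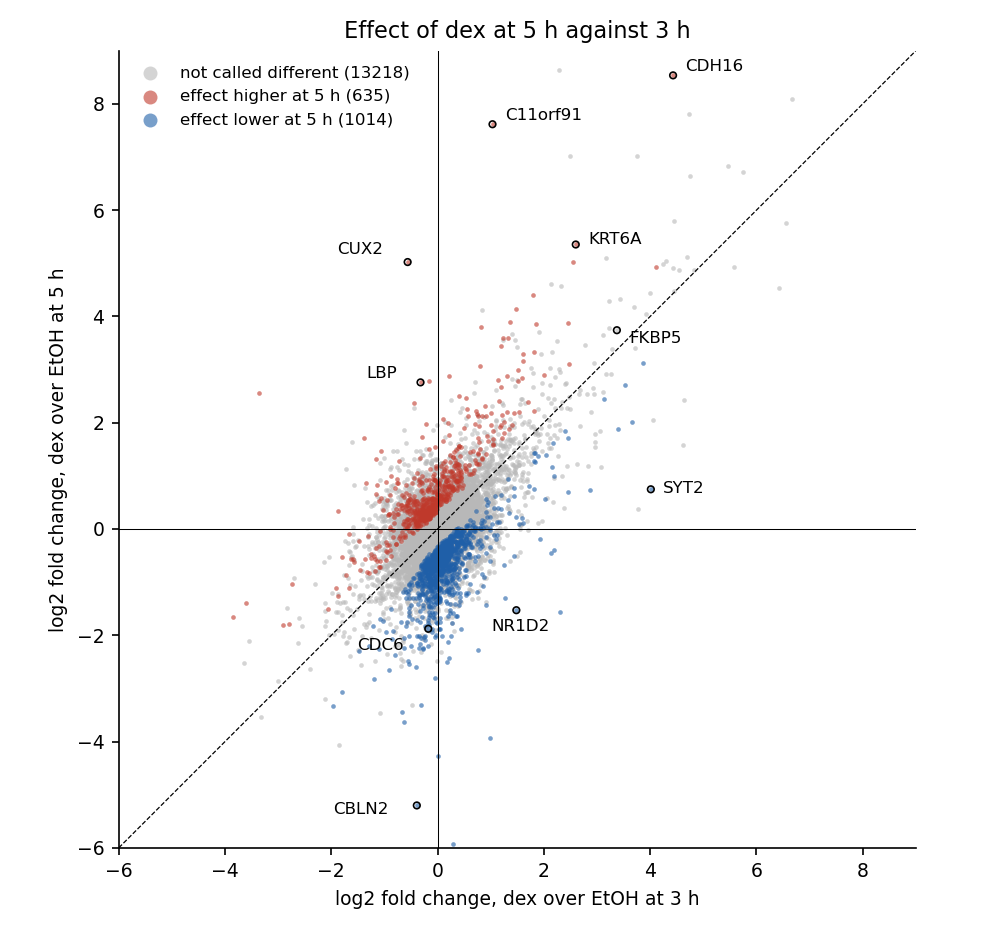
Each point is 1 of 14867 genes, with its log2 fold change of dex over EtOH at 3 h on the horizontal and at 5 h on the vertical axis, and the dashed line marks equal effects. Genes whose effect was higher at 5 h (635) are red and those whose effect was lower (1014) blue.

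The effect on many replication and repair genes was lower at 5 hours than at 3 hours. In the fit of 12 libraries 8 of 46 replication genes were called lower at 3 hours and 2 higher. Of 30 recombination and Fanconi genes 5 were called lower and none higher. The share of all genes called at 3 hours is not given here. The counts at 5 hours above come from the fit of 4 libraries, so the counts are not set against each other. In 41 of 46 replication genes the effect was lower at 5 hours than at 3 hours, and in none higher, beside 1014 and 635 of all 14867 genes. The median of the replication genes was -0.01 at 3 hours, -0.98 at 5 hours and -0.68 at 7 hours. CDC6 was at 109.8 and 113 CPM in the dex libraries of 3 hours, 34.7 and 42.2 CPM at 5 hours and 45.6 and 48.8 CPM at 7 hours, while its EtOH libraries gave 135 and 118, 149.7 and 133, and 126 and 123 CPM. The difference between its effects at 5 and 3 hours was -1.70 ± 0.14 on the log2 scale (adjusted p = 1.67e-09). Summed over the list, the level was 5011 and 4783 CPM with dex at 3 hours and 2536 and 2526 CPM at 5 hours, against 4845 and 5039 CPM and 5191 and 5050.4 CPM with EtOH. The EtOH libraries thus held their level while the dex libraries were lower at 5 hours. BRCA2 showed the same order (-0.21 at 3 hours, -1.34 at 5 hours, -0.88 at 7 hours, difference -1.13 ± 0.20). The effect was lower at 5 hours in 18 of 30 recombination and Fanconi genes and in 31 of 48 mitosis genes, and higher in none of them.

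Genes that rose were also stronger at 5 hours in several groups. The effect on 12 of 31 cholesterol and fatty acid genes was higher at 5 hours than at 3 hours, and lower on 1. Over all 14867 genes it was higher in 635 and lower in 1014. INSIG1 went from -0.59 at 3 hours to 0.44 at 5 hours and MSMO1 from 0.04 to 0.63. Of the JAK-STAT genes, 8 of 29 tested in this fit had a higher effect at 5 hours, among them JAK1 (0.36 at 3 hours, 0.92 at 5 hours and 0.89 at 7 hours, difference 0.57 ± 0.12). FKBP5 was already at 221 and 215 CPM with dex at 3 hours and its effect did not pass the test of a difference (0.37 ± 0.13, adjusted p = 0.102). MT2A went from 1.61 to 3.30 and ITGA5 from 1.60 to 2.85. Some early effects were smaller at 5 hours, each with the difference called: EREG went from -2.79 to -1.78, CXCL8 from -3.85 to -1.66, PLK2 from -1.87 to -1.26 and CTGF from 2.15 to 1.16.

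NR1D2 changed sign. With dex it was at 205 and 207 CPM at 3 hours, 28.8 and 23.5 CPM at 5 hours and 51.9 and 57.3 CPM at 7 hours, and with EtOH at 74.3 and 73.0, 72.9 and 78.0, and 76.5 and 90.5 CPM. Its effect was thus 1.48 at 3 hours, -1.53 at 5 hours and -0.62 at 7 hours. The difference was -3.01 ± 0.15 from 3 hours (adjusted p = 6.05e-15) and -0.91 ± 0.15 from 7 hours (adjusted p = 0.0298), and it was the 1 gene that differed between 5 and 7 hours. PER1, by contrast, was raised at all 3 times (3.87, 3.12 and 3.47), with a smaller effect at 5 than at 3 hours (difference -0.75 ± 0.21, adjusted p = 0.0275).

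**Figure D5:**
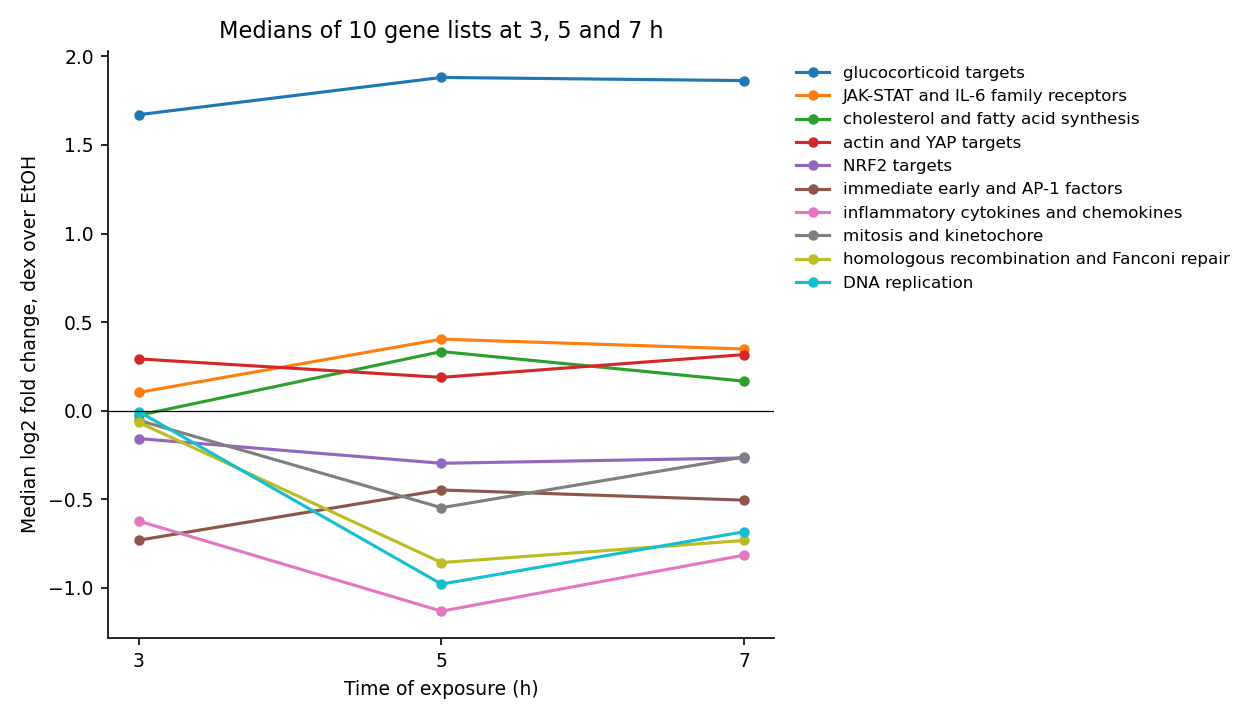
The median log2 fold change of dex over EtOH of 10 gene lists is given at 3, 5 and 7 hours, each time against its own EtOH libraries and all from 1 fit of 12 libraries. The GC targets lie near 1.67 to 1.88 throughout, while the median of the replication genes is -0.01 at 3 hours, -0.98 at 5 hours and -0.68 at 7 hours.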

How the data were processed

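Per the labels and the paper's methods, poly-A RNA from A549 cells was sequenced from stranded libraries as single reads of 50 bases. The authors mapped them to GENCODE release 19 transcripts with Bowtie and counted reads per transcript with samtools; the deposited values are raw counts, and the labels name hg19. How reads matching several transcripts were placed and whether counting used strand are not given in the sources used here. The methods speak of triplicates, but each group has 2 labelled replicates. The treatment text of the labels gives 1 h throughout, and the duration field was used here.

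Of 119207 transcripts, 110262 were joined by identifier to 33127 genes of GENCODE release 29 (GRCh38), which supplied symbols and coordinates, and their counts were summed. The other 8945 transcripts entered the fits singly but are not among the genes counted. The row for unplaced reads held 0 counts. Counts were tested with edgeR 4.0.16 (TMM scaling, filterByExpr, robust quasi-likelihood F-test, threshold 0.1, as the 10% FDR of the methods), 2 dex against 2 EtOH libraries at 5 h, and as an interaction in 1 fit over the 12 libraries of 3, 5 and 7 h. The 5 h libraries are shared by both interaction contrasts. The SE was derived from the log2 fold change and its F value. The biological coefficient of variation was 8.30% in the fit of 5 h. Replicates differed beyond sampling noise (chi-square per gene 6.99 with dex and 4.61 with EtOH, where sampling alone gives about 1). On counts simulated for the comparison at 5 h (18125 features, 200 changed) 84% of 2-fold and 100% of 4-fold changes were recovered, with 11.5% of 208 calls false, and on those simulated for 5 h against 3 h (19239 features) 55% and 97%, with 10.1% of 169 calls false. The changed features were drawn only from those above a minimum expected count, so recovery among genes of few counts was not measured. Fewer features were changed there than were called in the data at 5 h.

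The 28 gene lists were written by hand from textbook roles. The comparison, lists and tests were chosen with earlier results of these data known, so the lists support nothing by themselves. Named genes are FKBP5, BRCA2 and JAK1; per list, the 4 called members with the largest change, up to 2 more of the minority direction, or the 2 highest where none was called; the 10 protein-coding and 3 long noncoding genes that changed most in each direction without overlap and with at least 20 counts in each library of the higher group; and the 5 that differed most between time points in each direction. List members named beyond this were chosen after their values were seen. Some genes that the rule names are not reported here. Promoters were matched by symbol to RefSeq (GRCh38.p14). Under 80% of all genes tested, of genes called and of the inflammatory, AP-1 and G1 lists had one, so motif shares over those sets are void and not given. Software was R 4.3.3, DESeq2 1.42.0, Python 3.11.15, scipy 1.17.1 and matplotlib 3.10.9. Alternatives were DESeq2, its size factors, other filters, a fit of all 24 libraries, a block for the replicate number, transcripts, a threshold of 0.05, a perfect palindrome as response element and leaving out each library.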

Additional observations from a re-analysis of the deposited data

Results flagged for a closer look

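The effect of dex differed between 5 and 3 hours in 1649 genes and between 5 and 7 hours in 1 gene, by the test of the difference itself. Among protein-coding genes with at least 20 counts in each library of a group involved, the effect at 5 hours was well below that at 3 hours in CBLN2 (difference -4.81 on the log2 scale), SYT2 (-3.27), NR1D2 (-3.01) and IGFN1 (-2.78). It was most above that at 3 hours in C11orf91 (6.58), CUX2 (5.59), CDH16 (4.11), LBP (3.08) and KRT6A (2.75). NR1D2 also differed from 7 hours (-0.91).

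SYT2, a synaptotagmin gene, was at 3.08 and 1.80 CPM with dex at 3 hours, 0.540 and 0.554 CPM at 5 hours and 2.18 and 2.63 CPM at 7 hours. CBLN2, a cerebellin gene, was at 1.95 and 1.62 CPM with dex at 3 hours and 0.108 and 0 CPM at 5 hours, where 1 count in all remained, so its fitted difference is no exact fold. CUX2, a homeobox gene, was at 0.513 and 0.180 CPM with dex at 3 hours, 4.75 and 4.98 CPM at 5 hours and 4.55 and 4.60 CPM at 7 hours. LBP, which encodes the lipopolysaccharide binding protein, was at 0.308 and 0.628 CPM with dex at 3 hours, 3.03 and 3.32 CPM at 5 hours and 1.18 and 1.05 CPM at 7 hours. IGFN1, a muscle protein gene, was at 1.44 and 2.24 CPM with dex at 3 hours and 0.216 and 0.222 CPM at 5 hours. The EtOH libraries of C11orf91 were at 0 at 5 hours and at 0.102 and 0.331 CPM at 3 hours, so the size of its difference depends on very few counts.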

How the results depend on the processing

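Of 2031 comparisons of 175 named genes with an alternative, 1930 kept their direction and side of the threshold, 94 lost the call and 7 changed sign. Most of these genes were chosen for large called changes, and every alternative reused libraries of the main fit. Agreement was therefore likely beforehand and does not show that directions are stable. The 7 changes of sign were all in RPL4, which was not called and lay at 0.00 (0.0015 with DESeq2, 0.0015 with DESeq2's size factors, 0.0036 with at least 10 counts in every library, 0.0010 with the replicate block, 0.017 by transcripts, 0.016 without dex replicate 2 and 0.13 without EtOH replicate 1).

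Counts of genes called at 5 hours moved by over 1.5 times with DESeq2 alone, to 2320 (1129 higher and 1191 lower), 2319 of them shared with the 3805. They were 3772 with DESeq2's size factors, 3687 without a filter, 3490 with at least 10 counts in every library, 3414 in 1 fit over 24 libraries, 3095 at a threshold of 0.05 and 2827 by transcripts, and between 3032 and 3364 when 1 library was left out (higher 1508 to 1671, lower 1515 to 1693). The difference between 5 and 3 hours gave 1048 genes in 1 fit over 24 libraries and between 1215 and 1512 when a library of 5 hours was left out. That between 5 and 7 hours gave 9 with DESeq2, 9 without a filter, 0 in 1 fit over 24 libraries and from 0 to 10 when a library was left out. Libraries with the same replicate number did not deviate together (correlation 0.0273), and the replicate number as a block gave 4012 genes at 5 hours, 1656 against 3 hours and 1 against 7 hours.

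Medians of the 28 lists moved by more than 1 SD in 37 of 308 comparisons and changed sign in 13. Without a filter they were -0.28 for G1 control, -1.33 for inflammatory mediators, 1.20 for metallothioneins and zinc transport and -0.11 for interferon-response genes. By transcripts they were -0.25 for G1 control, -1.25 for inflammatory mediators, -0.58 for AP-1 factors, 0.46 for JAK-STAT and -0.11 for junctions. With at least 10 counts in every library they were -0.060 for TGF-beta and 0.11 for metallothioneins and zinc transport. When 1 library was left out the medians ranged from 1.89 to 2.10 for GC targets, -0.89 to -0.77 for recombination and Fanconi repair, -0.33 to -0.28 for G1 control, -1.07 to -0.79 for inflammatory mediators, -0.041 to 0.098 for NF-kappaB, -0.23 to -0.036 for the EGF family, -0.057 to 0.055 for MAP kinases, 0.41 to 0.48 for JAK-STAT, 0.13 to 0.42 for the clock, 0.29 to 0.38 for cholesterol, 0.078 to 0.20 for fuel, -0.078 to 0.16 for matrix, 0.14 to 0.22 for actin and YAP, -0.11 to -0.071 for ribosome biogenesis, -0.071 to 0.25 for ribosomal proteins, -0.32 to -0.24 for NRF2 targets and 0.0063 to 0.18 for interferon-response genes. With DESeq2 the members called higher numbered 10 for cholesterol, 4 for the unfolded protein and amino acid response, 1 for interferon-response genes and 2 for oxidative phosphorylation, and those called lower 2 for MAP kinases, 3 for fuel and 3 for ribosome biogenesis. Over all 14103 genes DESeq2 called 1129 higher and 1191 lower. In 1 fit over 24 libraries 3 genes of oxidative phosphorylation and 2 MAP kinases were called higher. That fit called 3414 of the 14103 genes, 47.0% of them higher. These settings, and leaving out 1 library, called fewer genes in all than the main fit. A lower count in a list is therefore not particular to that list by itself. The cause of these shifts was not tested. The perfect palindrome of a response element stood in 1 of 27305 promoters (0.00366%). With 2 libraries per group, changes of about 2-fold and genes of few counts are the least certain.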

Other observations

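Of 14867 genes tested, 927 had a called difference and opposite signs of the effect at 3 and 5 hours. In 71 of these the effect of dex was also called at both times. Effects called with opposite signs make a called difference likely beforehand, so that call adds no support. The 71 genes were looked at after the comparison of the time points was known and are given as values only. Beside NR1D2 they held INSIG1, which retains the sterol sensor in the endoplasmic reticulum and was lower at 3 hours and higher at 5 hours (-0.59 and 0.44). Also among the 71 were 4 genes of DNA synthesis that were higher with dex at 3 hours and lower at 5 hours. They were the helicase subunit gene GINS1 (0.28 and -1.01), the polymerase alpha gene POLA1 (0.27 and -0.89), RNASEH2A (0.49 and -0.90) and the clamp loader gene CHTF18 (0.52 and -0.77). Their EtOH libraries moved too. From 3 to 5 hours RNASEH2A went from 9.01 and 9.03 to 13.01 and 12.04 CPM with EtOH. CHTF18 went from 6.66 and 6.46 to 10.45 and 8.55 CPM. With dex RNASEH2A was at 13.23 and 12.21 CPM at 3 hours. GINS1 (110.8 and 114.8 to 116.9 and 132.1 CPM) and POLA1 (93.6 and 92.1 to 103.3 and 97.4 CPM) moved less in proportion. The part of EtOH in the effects at 3 hours was not tested. Of the whole list of 46 replication genes 2 were called higher at 3 hours and 8 lower in the same fit (median -0.01). The share of all genes called at 3 hours is not given here. The cytokine genes IL15 (-0.49 and 0.35) and IL18 (-0.41 and 0.52), the oncostatin M receptor gene OSMR (-0.45 and 0.34) and the TNF receptor gene TNFRSF1A (-0.25 and 0.47) were lower at 3 hours and higher at 5 hours. COL1A1 went from 0.56 to -1.21.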
